A study of Mus musculus with 17 samples.

Results

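The lining of the colon is kept apart from the gut contents by mucus, which is made and released by goblet cells. The gel is built from the secreted mucin Muc2, to which goblet cells add smaller partner proteins, and the cells form from progenitors under transcription factors of the secretory lineage. The measurements below concern 10 genes of this system, Muc2, Fcgbp, Clca1, Zg16, Tff3, Spink4, Agr2, Atoh1, Spdef and Muc4, chosen by symbol from the 23719 entries of a table of gene counts. All 10 genes were found, each in 1 entry, and all 10 passed the filter on low counts, which left 14146 genes for testing.

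RNA was sequenced from the colons of 17 male C57BL/6 mice aged 32 to 34 weeks. The 8 mice of the Gulf War Illness (GWI) group received 2 mg/kg of pyridostigmine bromide in their drinking water over 7 days and were kept without it until day 30. The drug blocks acetylcholinesterase, the enzyme that breaks down acetylcholine, and its action is reversible. The 9 Control mice did not receive the drug. For the RNA samples, the sources used here do not say which layers of the colon wall were taken, and markers of epithelium, muscle, nerve and immune cells were all detected. In such bulk tissue fewer cells of a type cannot be told apart from less RNA per cell. Depth was similar across the colons, from 16293537 to 20741212 counts in a mouse. A few libraries stood apart from the rest: Control 1 and GWI 5 in the positional gene Hoxa13, Control 6 and Control 7 in the Paneth cell genes Lyz1 and Defa24, and Control 9 in the share of counts taken by its 10 top genes, 23.1% against 9.72% to 17.3% in the other mice.

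All 10 genes were detected in every colon, with the lowest count of any member in any mouse being 341. Levels between genes were compared as TPM, which divide each count by the length of the gene's exons and scale each mouse to a sum of 1000000. In Control mice the highest median was that of Muc2, at 3665 TPM, followed by Tff3 at 2469, Spink4 at 2311, Agr2 at 2096 and Zg16 at 2041 TPM. The order of these 4 small secreted or secretory-pathway products varied between mice: Tff3 lay above Spink4 in 4 of 9, Spink4 above Agr2 in 2 of 9 and Agr2 above Zg16 in 5 of 9 Control mice. Muc2 lay above Tff3 in 7 of 9. Clca1, with a median of 536 TPM, lay below Zg16 in 8 of 9 Control mice. Fcgbp followed at 233 TPM, the transcription factors Spdef and Atoh1 at 144 and 65.2 TPM, and the membrane-anchored mucin Muc4 was lowest at 14.2 TPM. In GWI mice Muc2 again had the highest median, 4803 TPM, and Muc4 the lowest, 34.6 TPM. Clca1 and Fcgbp reached medians of 1115 and 547 TPM there and kept places 6 and 7. The level of Muc2 depends on the length used, since its gene model holds only fragments, the longest of 2926 bases in a union of 7127. With the longest transcript of each gene in place of the union, Muc2 stayed first in both groups, while in Control mice Tff3 moved from place 2 to 5 and Zg16 from 5 to 2. The median ratio of Muc2 to Tff3 over the 17 mice was 1.55 with the union of exons and 3.77 with the longest transcript.

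Together the 10 genes took up 1.01% to 2.01% of all counts in Control mice, with a median of 1.503%, and 1.43% to 2.36% in GWI mice, with a median of 1.84%. The groups overlapped, with 3 of 8 GWI mice above every Control mouse and 3 of 9 Control mice below every GWI mouse. The Control maximum of 2.01% was that of Control 1, and the other Control mice did not exceed 1.64%. The lowest share was that of Control 9, 1.01% (exact 95% confidence interval 1.00 to 1.01), and the highest was that of GWI 1, 2.36% (2.35 to 2.36). Muc2 alone supplied 53.3% to 73.9% of the members' counts in GWI mice and 46.1% to 73.3% in Control 2 to Control 9. In Control 1 it supplied 21.6%, and Fcgbp and Clca1 both exceeded Muc2 there. Set against the counts of the members and 10 epithelial genes together, the members took 51.1% ± 2.58 (SD, n = 9) in Control and 50.6% ± 6.07 (SD, n = 8) in GWI mice.

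Across the 14146 genes, 1889 (13.4%) were higher and 1903 (13.5%) lower in GWI than in Control mice at a Benjamini-Hochberg adjusted p under 0.05 in edgeR's quasi-likelihood test, and the median log2 fold change was -0.06. With upper-quartile factors the same test gave 1214 higher and 2992 lower, so that 28.9% of calls were higher in place of 49.8%. Among the 10 members, 2 were higher and 0 lower, and the median log2 fold change was 0.04. The members called higher were both mucins, Muc2 and Muc4. With 10 genes, a count of 2 lies near the share of all genes and is not a result about the list.

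**Figure D1:**
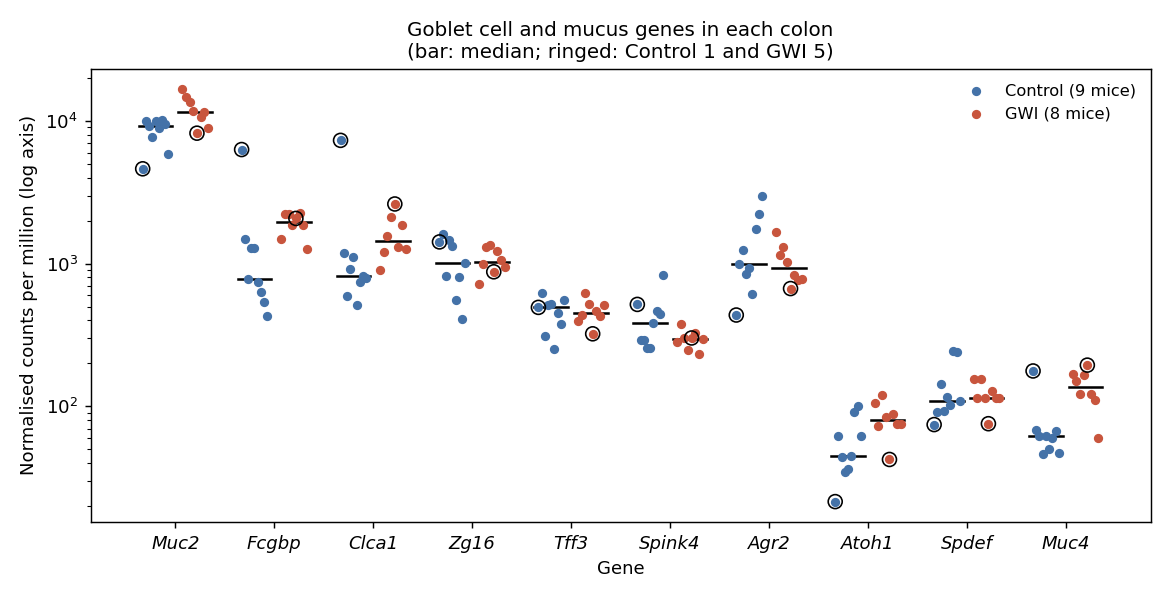
Normalised counts (CPM) of the 10 goblet cell and mucus genes (vertical log axis) in each of 9 Control and 8 GWI colons, 1 point per mouse, with the median of each group as a bar and Control 1 and GWI 5 ringed. Control 1 lies far above the other Control mice in Fcgbp (6294) and Clca1 (7300) and lowest of all mice in Muc2 (4615), Agr2, Atoh1 and Spdef.

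Muc2 encodes the gel-forming mucin of intestinal mucus. In Control mice it lay between 4615 (Control 1) and 10060 CPM, the normalised count per 1000000 counts, with a median of 9207, and in GWI mice between 8197 (GWI 5) and 16660, with a median of 11610 CPM. The groups overlapped, although 6 of 8 GWI mice were above every Control mouse. Muc2 was 1.42-fold higher in GWI mice, a log2 fold change of 0.51 ± 0.18 (SE), with an adjusted p of 0.0465 from edgeR. This call lay close to the threshold: leaving out 1 mouse at a time gave adjusted p values between 0.0296 and 0.0953, and the call was kept only without Control 1, 2, 5 or 7 or GWI 5 or 8. It was lost with upper-quartile factors (adjusted p = 0.107), with library size alone (0.091), without robust estimation (0.0523) and without a filter on low counts (0.0653). A block on replicate number also lost the call of Muc2, and its highest adjusted p in any alternative was 0.181.

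Muc4 encodes a mucin that stays anchored in the cell membrane. In Control mice it lay between 46.4 and 177 CPM with a median of 61.9, and in GWI mice between 59.9 and 195 CPM with a median of 136. Only Control 1 exceeded 68.3 CPM among Control mice, and GWI 8 was the only GWI mouse in the range of the other Control mice. Muc4 was 1.92-fold higher in GWI mice (log2 fold change 0.94 ± 0.26 SE, adjusted p = 0.0148 from edgeR). When mice were omitted 1 at a time the call held in all 17 fits, and the log2 fold change stayed within 0.85 to 1.25. It did not hold when a score of 10 epithelial genes was added as a covariate, which left 0.51 ± 0.23 (adjusted p = 0.133). Exons of Muc4 overlap those of Muc20 on the opposite strand by 627 bases, and the strand setting of the counting is not given in the sources used here. Muc20 itself did not exceed 3.15 CPM.

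Fcgbp and Clca1 encode large secreted proteins of the mucus gel, and Clca1 is a metalloprotease that can act on Muc2. Fcgbp lay between 429 and 6294 CPM in Control mice, with a median of 783, and between 1272 and 2261 in GWI mice, with a median of 1965 CPM. Clca1 lay between 512 and 7300 CPM in Control mice, with a median of 814, and between 904 and 2617 in GWI mice, with a median of 1435 CPM. In both genes the Control maximum was the single mouse Control 1, and the other 8 Control mice did not exceed 1498 CPM of Fcgbp and 1193 CPM of Clca1. Over all 17 mice neither gene passed the test, with log2 fold changes of 0.35 ± 0.44 (adjusted p = 0.562) for Fcgbp and 0.05 ± 0.47 (adjusted p = 0.951) for Clca1, the latter changing sign with upper-quartile factors (-0.02). With the epithelium score as a covariate both values were negative, -0.27 (adjusted p = 0.372) for Fcgbp and -0.59 (adjusted p = 0.132) for Clca1. Control 1 also had the highest summed level of the 10 epithelial genes of all mice (21470 CPM), and its part in that fit was not tested. As a mean log2 ratio to that sum, GWI mice were higher by 0.51 for Fcgbp and 0.22 for Clca1. The direction after accounting for epithelium thus depends on the method.

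Without Control 1, both genes were called higher in GWI mice. Fcgbp then had a log2 fold change of 1.09 (adjusted p = 0.00288 from edgeR), and 6 of 8 GWI mice lay above each of the other 8 Control mice. Clca1 had 0.95 (adjusted p = 0.00313), with 7 of 8 GWI mice above those Control mice. In that fit 4 of 10 members were higher, Muc2, Fcgbp, Clca1 and Muc4, beside 17.9% of all genes. DESeq2's Wald test on all 17 mice called the same 4 members, beside 13.3% of all genes, and it had replaced the counts of Control 1 for Fcgbp and for Clca1 as too far from the rest. The limma-voom fit, which gave Control 1 a weight of 0.247 and Control 9 a weight of 0.117, called those 4 and Atoh1, beside 27.6% of all genes. Leaving out Control 1, 6, 7 and 9 and GWI 5, a choice made after the data were seen, also called these 5 members, beside 19.4% of all genes.

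**Figure D2:**
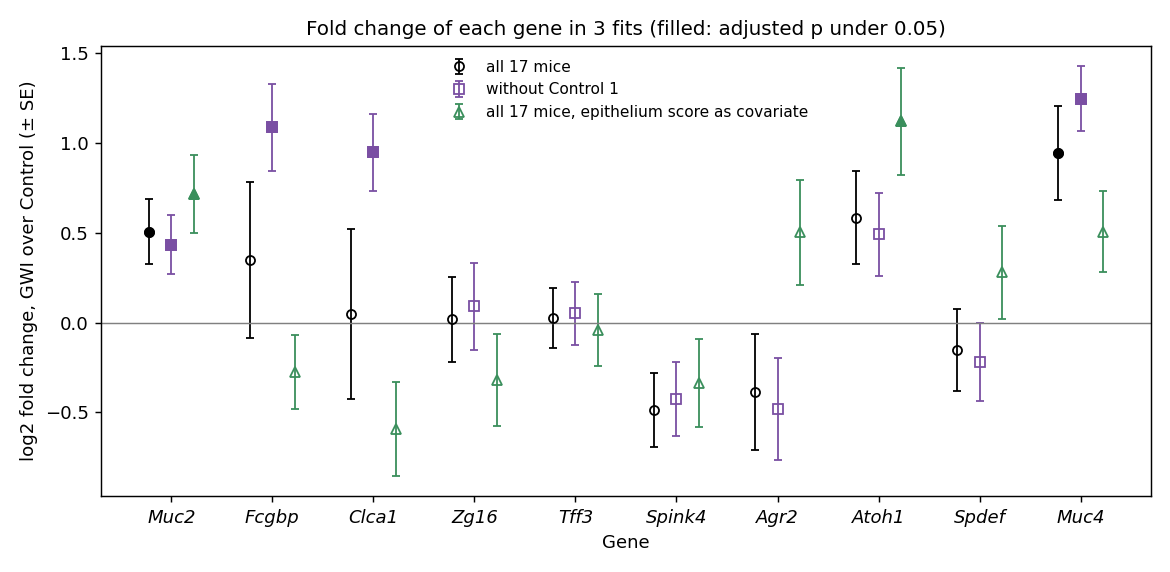
Log2 fold change of GWI over Control (vertical axis, ± SE) for each of the 10 genes in edgeR fits to all 17 mice, to 16 mice without Control 1, and to all 17 mice with the epithelium score as a covariate, with filled symbols where the adjusted p was under 0.05. Fcgbp and Clca1 change most between the fits, from 0.35 and 0.05 with all mice to 1.09 and 0.95 without Control 1 and to -0.27 and -0.59 with the covariate.

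Atoh1 and Spdef are transcription factors of the goblet lineage: Atoh1 commits progenitors to the secretory fate, and Spdef promotes the maturation of goblet cells. Atoh1 lay between 21.5 and 101 CPM in Control mice, with a median of 45.3, and between 42.5 and 121 in GWI mice, with a median of 79.9 CPM. The groups overlapped widely, with 2 GWI mice above every Control mouse, and the log2 fold change of 0.58 ± 0.26 did not pass the test (adjusted p = 0.0989). It was called without Control 8 (0.74, adjusted p = 0.0347) and with the epithelium score as a covariate (1.12, adjusted p = 0.0341). Spdef had nearly equal medians, 110 CPM in Control and 115 CPM in GWI mice. Its log2 fold change was -0.15 ± 0.23 (adjusted p = 0.632).

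The other 4 members are Zg16, a lectin-like protein that binds bacterial cell walls, the trefoil peptide Tff3, the small protease-inhibitor-like protein Spink4, and Agr2, a disulfide isomerase of the endoplasmic reticulum needed to make Muc2. None of the 4 passed the test in the edgeR fit to all mice. Zg16 had medians of 1014 and 1029 CPM and Tff3 of 494 and 450 CPM in Control and GWI mice, with log2 fold changes of 0.02 ± 0.24 for Zg16 and 0.02 ± 0.17 for Tff3, both of which changed sign with upper-quartile factors. Spink4 lay between 255 and 829 CPM in Control and between 235 and 380 CPM in GWI mice (log2 fold change -0.49 ± 0.21, adjusted p = 0.0863), and was called lower only with upper-quartile factors (-0.57, adjusted p = 0.0395). Leaving out 1 mouse moved its value between -0.55 and -0.29, the latter without Control 9. Agr2 spread most among Control mice of these 4, from 437 CPM in Control 1 to 2974 CPM in Control 9, and gave -0.39 ± 0.32 (adjusted p = 0.373), a value that moved between -0.52 without GWI 1 and -0.14 without Control 9. The values of Agr2 and Spdef changed sign in the limma-voom fit (0.01 and 0.07) and with the epithelium score as a covariate (0.50 and 0.28), and neither gene was called in either.

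Some of the genes that mark epithelium and smooth muscle were called different between the groups. Whether the make-up of the tissue differed cannot be told from these counts. Of 10 general epithelial genes, 4 were higher in GWI mice and 0 lower, beside 13.4% and 13.5% of all genes, and the median log2 fold change was 0.43. They were Epcam (0.28), the cadherins Cdh1 (0.62) and Cdh17 (0.47) and the microvillus protein Vil1 (0.64). The fits without 1 mouse kept the calls of Cdh1 and Vil1 in all 17, that of Cdh17 in 14 and that of Epcam in 4. The summed level of the 10 epithelial genes lay between 10890 and 21470 CPM in Control mice, with a median of 14050, and between 14290 and 21110 in GWI mice, with a median of 18870 CPM. The most abundant, the keratin Krt8, had medians of 3915 and 5549 CPM and did not pass the test over all mice (adjusted p = 0.107), but was called without Control 1 (0.52, adjusted p = 0.0231). Of 10 smooth muscle genes, 7 were lower and 0 higher, beside 13.5% and 13.4% of all genes, and the median log2 fold change was -0.91. Their summed level lay between 3690 and 23920 CPM in Control mice, with a median of 11580, and between 3658 and 11830 in GWI mice, with a median of 5142 CPM. The groups overlapped, with 5 of 9 Control mice, Control 2, 3, 7, 8 and 9, within the range of the GWI mice. The most abundant, the myosin Myh11, had medians of 2700 and 1205 CPM, and its call was kept in 5 of 17 fits without 1 mouse. Tagln, an actin-binding protein of muscle, fell by 1.17 on the log2 scale (adjusted p = 0.00628), and Mylk and Synpo2 fell by 0.91 and 1.06, of which the call of Synpo2 was kept in 12 of 17 such fits. No epithelial or muscle gene on these lists was at 0 in all mice, and the part of tissue make-up in the differences of the mucus genes was not tested beyond the covariate fit.

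As a percentage of the summed epithelial level in the same mouse, Muc2 had a median of 65.4% in Control and 60.1% in GWI mice, while its mean log2 ratio was higher in GWI mice by 0.17, so that the direction depends on the statistic. Fcgbp had medians of 6.45% and 10.2%, and Clca1 of 6.23% and 8.80%. Muc4 had medians of 0.437% and 0.765%, and Atoh1 of 0.36% and 0.43%. The medians of Zg16, Tff3, Spink4, Agr2 and Spdef were lower in GWI than in Control mice on this scale. The mean log2 ratio differed between the groups by -0.74 for Spink4 to 0.65 for Muc4, with a median of -0.03 over the 10 members. For Fcgbp (0.51), Clca1 (0.22), Agr2 (-0.56) and Spdef (-0.41) its sign was opposite to that in the covariate fit. In the fit with the epithelium score as a covariate, Muc2 (0.72, adjusted p = 0.049) and Atoh1 were the 2 members called higher, beside 4.98% of all genes.

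**Figure D3:**
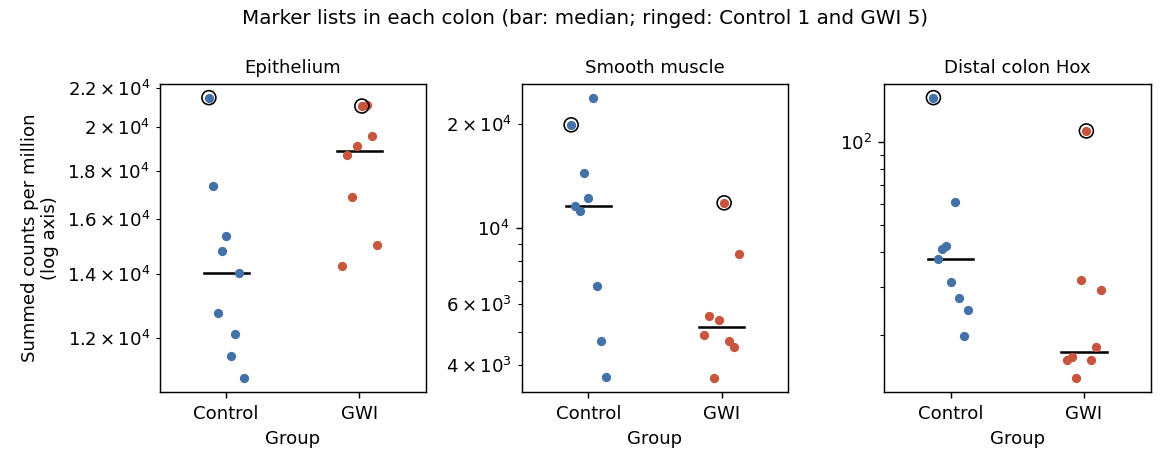
Summed CPM (vertical log axes) of 10 epithelial genes, 10 smooth muscle genes and 7 Hox genes of the distal colon in each Control and GWI colon, 1 point per mouse, with group medians as bars and Control 1 and GWI 5 ringed. The epithelial medians are 14050 and 18870, the muscle medians 11580 and 5142, and Control 1 and GWI 5 have the highest Hox sums of their groups, 145 and 110.

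Several colons stood apart in Hox genes, which mark position along the gut, and not all of these genes in the same direction. Hoxa13, a transcription factor of the distal hindgut and the most abundant of 7 such genes in the table, was at 71.0 CPM in Control 1, 75.3 in GWI 5 and 16.1 in GWI 4, and did not exceed 5.78 CPM in any other mouse. Hoxb13 was likewise highest in Control 1 (55.5 CPM) and GWI 5 (11.4 CPM). Hoxd10 and Hoxd11 went the other way, with 0.505 and 0.442 CPM in Control 1, the lowest of all mice, and 1.01 and 0.757 CPM in GWI 5, the lowest of the GWI mice. Hoxa11 was highest of all mice in GWI 5 (20.7 CPM) and next among GWI mice in GWI 4 (10.3 CPM), and in Control 1 (15.5 CPM) it lay level with Control 6. Hoxd13 was second highest of all mice in Control 1 (2.08 CPM) and within the range of the other GWI mice in GWI 5 (0.568 CPM). None of the 6 Hox genes tested was called (lowest adjusted p = 0.0566 in edgeR), beside 13.4% of all genes higher and 13.5% lower. Their median log2 fold change was -0.83. Of the products of goblet cells outside the 10 members, Retnlb and Ang4, antimicrobial proteins named here after their values were seen, showed the same mice: Retnlb was at 976 CPM in Control 1, 611 in GWI 5 and 135 in GWI 4, and 90.5 CPM or less in the others. Ang4 was at 1002, 351 and 138 CPM in these mice and at 66.5 CPM or less elsewhere. Other genes of that list went the other way: Klk1 was lowest of each group in Control 1 (304 CPM) and GWI 5 (473 CPM), and Reg4 was lowest of all mice in GWI 5 (22.3 CPM) and next lowest in GWI 4 (29.4 CPM), but not low in Control 1 (96.8 CPM). Control 1 also held the highest Fcgbp and Clca1 of any mouse, GWI 5 the highest Clca1 of the GWI mice and GWI 4 the next. For Fcgbp this did not hold among GWI mice, where GWI 5 (2073 CPM) and GWI 4 (1857) lay below GWI 2, GWI 3 and GWI 6 (2232 to 2261 CPM). The part of position along the colon in the values of the mucus genes was not tested.

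Of the genes listed for the small intestine and Paneth cells, some were high in Control 6 and Control 7 and others were not. Lyz1, the Paneth cell lysozyme, was at 189 CPM in Control 6 and 330 in Control 7 and at 8.19 CPM or less in all other mice, and Defa24, a defensin, at 60.4 and 120 CPM in those mice and at 0.62 CPM or less elsewhere. In the same mice Defa17, another defensin, was at 3.54 and 7.01 CPM, against 0.052 CPM or less elsewhere. Apoa1 was at 28.7 and 133 CPM there and at 1.665 CPM or less elsewhere. Sis was highest in Control 7 (193 CPM), while Control 6 (51.2 CPM) lay below Control 8 (82.7 CPM). Itln1 was at 48.4 and 74.8 CPM in Control 6 and 7 but also at 71.7 in Control 1 and 31.6 in GWI 5. Alpi was not raised in Control 6 or 7, Lct was at most 0.287 CPM in every mouse, and the highest sum of the list was that of Control 9. Lyz1 was called lower in GWI mice, and the call was lost without these mice (-0.75, adjusted p = 0.0854). Fabp2, the most abundant of the 10 genes on that list, had medians of 738 and 708 CPM, and the brush border phosphatase Alpi was higher (0.92, adjusted p = 0.0376), a call kept in 7 of 17 fits without 1 mouse. The summed level of the list was 403 to 1032 CPM in GWI mice and 614 to 2405 CPM in Control mice. Without Control 6 and 7, Muc4 stayed called (0.85, adjusted p = 0.0472) and Muc2 did not (0.56, adjusted p = 0.0602).

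Among other mucins, the gel-forming mucins of the stomach and airway were near the floor of detection, with Muc5ac, Muc5b and Muc19 not exceeding 0.223 CPM. Muc6, the 1 gene of this kind that could be tested, was higher (1.23 ± 0.39, adjusted p = 0.0263) but did not exceed 3.12 CPM. Of 6 membrane mucins tested beside Muc4, 2 were higher and 0 lower, beside 13.4% and 13.5% of all genes, and their median log2 fold change was 0.78. Muc13 had medians of 1011 CPM in Control and 1960 CPM in GWI mice (0.78 ± 0.18, adjusted p = 0.00664), and all GWI mice lay above 8 of 9 Control mice. Muc3a rose from a median of 91.1 to 164 CPM (0.78, adjusted p = 0.0122). Muc3, the most abundant, did not pass the test over all mice (0.59, adjusted p = 0.156) and was called without Control 1 (0.85, adjusted p = 0.0234). The counts of Muc3 and Muc3a are uncertain, because reads that fit more than 1 of the near-identical mucin copies may be lost.

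Of 12 other products of goblet cells or the epithelial surface that were tested, 1 was higher and 1 lower, beside 13.4% and 13.5% of all genes. The metalloprotease subunit Mep1a (meprin alpha) was higher in GWI mice (0.71 ± 0.15, adjusted p = 0.00446), with 6 of 8 GWI mice above every Control mouse. Smim6, a small membrane protein, was lower (-0.52, adjusted p = 0.0353). Lypd8, which keeps flagellated bacteria from the epithelium, was the most abundant, with medians of 2726 and 4623 CPM, and did not pass the test (0.54, adjusted p = 0.0586). It was called without Control 1 (0.72, adjusted p = 0.00432) or without Control 2 (adjusted p = 0.0355).

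Of 22 genes for folding, packing and release of mucin, 2 were higher and 1 lower, beside 13.4% and 13.5% of all genes. Stxbp2, which takes part in the fusion of secretory granules, was higher (0.36 ± 0.08, adjusted p = 0.00703), as was the inflammasome sensor Nlrp6 (0.44, adjusted p = 0.0214). Ramp1, a subunit of the receptor for the neuropeptide CGRP, was lower (-0.66, adjusted p = 0.00457), with 3 GWI mice below every Control mouse. The ion transporter Slc12a2, the most abundant, gave -0.36 and did not pass the test (adjusted p = 0.37).

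Mucins carry dense O-linked sugar chains, and of 17 tested enzymes that build these chains, 4 were higher and 0 lower, beside 13.4% and 13.5% of all genes, and the median log2 fold change was 0.16. B4galnt2, which makes the terminal Sd(a) sugar epitope and was the most abundant, lay between 316 and 494 CPM in Control mice and between 470 and 1060 CPM in GWI mice. Its log2 fold change was 1.10 ± 0.14 (adjusted p = 0.000269), 7 of 8 GWI mice lay above every Control mouse, and the call held with the epithelium score as a covariate (1.10). B3galt5, a galactosyltransferase, gave 0.97 (adjusted p = 0.0152). The starting enzymes Galnt4 and Galnt12 gave 0.57 (adjusted p = 0.0121) and 0.35 (adjusted p = 0.0326).

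Of 17 other regulators of the intestinal lineages, 4 were higher and 0 lower, beside 13.4% and 13.5% of all genes, and the median log2 fold change was 0.23. They were the epithelial factors Elf3 (0.71, adjusted p = 0.0043), Cdx2 (0.38, adjusted p = 0.00831), Klf5 (0.39, adjusted p = 0.0264) and Hnf4a (0.42, adjusted p = 0.043), of which Hnf4a was the most abundant. With the epithelium score as a covariate, the calls of Klf5, Galnt4, Galnt12, B4galnt2 and Muc13 were kept, and those of Elf3, Cdx2, Hnf4a, Muc3a, Mep1a, Smim6, Stxbp2, Nlrp6, Ramp1 and B3galt5 were lost. A lost call alone does not show a smaller fold change. Of the calls in these lists, the fits without 1 mouse kept that of Smim6 in 7 of 17, Galnt12 in 8, Hnf4a in 3 and Klf5 in 14.

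Markers of other cell types in the colon wall were read in the same fit. Of 12 genes of absorptive colonocytes, 1 was higher, beside 13.4% of all genes, the cytochrome Cyp2c55 (0.67, adjusted p = 0.0107), and Car1, the most abundant, had medians of 12050 and 11420 CPM. None of 8 enteroendocrine, 6 tuft, 7 crypt base or 10 enteric neuron genes tested was called in the edgeR fit, beside 13.4% of all genes higher and 13.5% lower. Their median log2 fold changes were 0.18, 0.33, -0.34 and -0.58. Uchl1, the most abundant enteric neuron gene, had medians of 43.5 CPM in Control and 27.1 CPM in GWI mice (-0.63, adjusted p = 0.273 from edgeR). Of 9 leukocyte genes, 2 were lower, beside 13.5% of all genes, the lysozyme Lyz2 (-0.64, adjusted p = 0.0188) and the integrin Itgax (-0.65, adjusted p = 0.0386, kept in 7 of 17 fits without 1 mouse), and Jchain, the most abundant, had medians of 125 and 103 CPM.

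The promoters of the 2 members called higher are shown with their E-box motifs, which the family of the lineage factor Atoh1 binds. Atoh1 itself was not called over all mice, and whether it acts on either gene was not tested. Sequences of the 250 bases before the start were found for 6 of the 10 members in RefSeq for GRCm38.p6, namely Atoh1, Fcgbp, Muc2, Agr2, Muc4 and Spdef. The Muc2 stretch is chr7:141690090-141690339 and the Muc4 stretch chr16:32735636-32735885, both on the plus strand, with each match to CANNTG, which reads alike on both strands, in capitals.
Muc2: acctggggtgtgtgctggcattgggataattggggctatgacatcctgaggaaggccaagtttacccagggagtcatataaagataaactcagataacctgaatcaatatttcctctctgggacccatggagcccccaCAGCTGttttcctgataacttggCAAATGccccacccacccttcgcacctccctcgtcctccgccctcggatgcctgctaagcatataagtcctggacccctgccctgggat
Muc4: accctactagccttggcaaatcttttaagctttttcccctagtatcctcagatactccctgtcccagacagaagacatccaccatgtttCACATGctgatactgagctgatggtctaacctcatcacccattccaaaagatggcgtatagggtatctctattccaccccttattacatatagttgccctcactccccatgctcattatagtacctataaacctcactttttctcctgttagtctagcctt
The window of Muc2 held 2 matches and that of Muc4 held 1. Fcgbp, not called over all mice, had 3 matches and Agr2 1, and Atoh1 and Spdef had 0. At least 1 match stood in 66.2% of 32851 promoters of this length, and CAGCTG, which stood once in Muc2 and once in Fcgbp, in 13%. The forms CAGATG and CATCTG, in 14.4% of promoters, were in 0 of the 6 members. In the gene models, Muc2 spans chr7:141690340-141754693 and Muc4 chr16:32735886-32782391, and both windows end at the base before.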

How the data were processed

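RNA was measured in the colons of 9 Control and 8 GWI mice, grouped by the sample labels. The authors selected poly(A) RNA, trimmed paired reads with Trimmomatic 0.36, mapped them with STAR 2.5.2b to GRCm38, counted unique gene hits with featureCounts and deposited raw counts per gene. Annotation release and strand setting are not given in the sources used here. Reads that map to several genes are lost in such counts, which lowers near-identical genes. The members and gene lists were chosen with earlier results of these data known.

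Counts were filtered with filterByExpr, scaled by TMM and tested with the robust quasi-likelihood test of edgeR 4.0.16 in R 4.3.3, with condition as the only term. P-values were adjusted by Benjamini-Hochberg over all 14146 genes, and a gene was called at an adjusted p under 0.05. The SE is the log2 fold change divided by the square root of F. CPM are TMM-normalised counts per 1000000. TPM used the union of exons of GENCODE M21, which matched 99.3% of 23671 symbols. The 48 entries with a repeated symbol stayed separate. All 10 members are named, and from each other list the gene with the highest mean CPM and up to 3 called genes with the smallest p-values per direction, or all called genes where these were 5 or fewer. The epithelium score is the mean log2 CPM (pseudocount 1) of the 10 epithelial genes. Alternatives were DESeq2 1.42.0, limma 3.58.1 with voom and sample quality weights, other scaling factors and filters, a replicate block, the epithelium score and mice left out. Shares have exact (Clopper-Pearson) 95% intervals, which cover counting error only. The code was tested on simulated data. Muc12, Muc17, Fam3d and Prac1 have no entry under these symbols in the table used here.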

Additional observations from a re-analysis of the deposited data

Results flagged for a closer look

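In each group, the mouse at either end was compared with its neighbour: a value is given here where the gap exceeded 0.493 (9 mice) or 0.526 (8 mice) of the whole range, on log2(CPM + 1) for genes and lists. Chance alone gives this in about 1 in 20 groups, and 16 values were found in 138 groups, 10 of them in Control 1 and 5 in GWI 5. Control 1 was the highest Control mouse in Fcgbp (6290 CPM), Clca1 (7300), Muc4 (177), Muc13 (2360), Hnf4a (1140), Cdh17 (1010) and Hoxa13 (71.0 CPM). It was the lowest Control mouse in Car1 (1990 CPM), Chgb (92.9 CPM) and the sum of 8 enteroendocrine genes (273 CPM). GWI 5 was the lowest GWI mouse in Spdef (75.7 CPM), Nlrp6 (181), Galnt4 (265) and Klf5 (119 CPM), and the highest in the sum of the distal Hox genes (110 CPM). Control 9 was the highest Control mouse in Fabp2 (2330 CPM). The part of these mice in the group differences was not tested beyond the fits without them.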

How the results depend on the processing

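Of 50 named genes, 31 were called, beside 13.4% of all genes higher and 13.5% lower. Genes outside the members were named in part because they were called. The count of 31 follows from that rule and is not a result. None of the 31 changed sign under any alternative run, which genes picked for small p-values would rarely do. DESeq2's Wald test kept 31 of these calls, DESeq2 size factors, the fit without robust estimation and limma-voom 30 each, library size alone 26, no filter on low counts 25, upper-quartile factors 24 and the epithelium covariate 11, and fits without 1 mouse kept 20 to 29. The number of members called higher, 2, was 1 with upper-quartile factors, library size alone, no robust estimation, no filter, the replicate block, or Control 6 and 7 left out. All genes called higher in these fits, in the same order, were 1214, 1530, 1891, 1657, 1415 and 1426. Tested were 14146 genes, but 19717 without a filter and 14139 without Control 6 and 7. Members called higher were 4 with DESeq2's Wald test, beside 13.3% of all genes, and 5 with limma-voom, beside 27.6%. They were also 5 with Control 1 and GWI 5 left out, beside 2467 of 14152 genes. With Control 1, 6, 7 and 9 and GWI 5 left out they were 5 too, beside 19.4%. Both sets were chosen after seeing the data. Without 1 mouse they were 1 to 4. Members called lower, 0 (0 to 0 without 1 mouse), were 1 with upper-quartile factors. All genes called higher (1889) were 1214 with upper-quartile factors, 3901 with limma-voom and 705 with the covariate, and 1472 to 2523 without 1 mouse. All genes called lower (1903) were 2992, 4175 and 553 in these fits, and 1309 to 2295 without 1 mouse. The replicate numbers do not pair the mice: of 8 same-numbered pairs 1 had a correlation over 0.1, from -0.54 to 0.10, and no mouse correlated best with its own number. With the replicate block, 1415 genes were higher and 826 lower, and 18 of the 31 calls were kept. The difference in share of counts, 0.36 percentage points, was -0.52 against member and epithelial counts alone, and the ratio of Muc2 to Tff3, 1.55, was 3.77 with the longest transcript. Genes not called over all mice changed sign as follows, and the cause was not tested. With the epithelium covariate, Fcgbp was -0.27, Clca1 -0.59, Zg16 -0.32, Tff3 -0.039, Agr2 0.50, Spdef 0.28, Muc3 -0.086, Slc12a2 0.61, Krt8 -0.089, Car1 0.60 and Hoxa13 -1.34. With upper-quartile factors, Clca1 was -0.024, Zg16 -0.076 and Tff3 -0.066. With limma-voom, Zg16 was -0.014, Agr2 0.012, Spdef 0.073, Slc12a2 0.0086, Car1 0.073 and Hoxa13 -0.38. With the replicate block, Car1 was 0.26 and Hoxa13 -0.33. Without Control 6 and 7, Clca1 was -0.18, Zg16 -0.12, Tff3 -0.067 and Hoxa13 -0.070. Without the 5 mice, Zg16 was -0.053, Car1 0.038 and Hoxa13 -0.12. Without 1 mouse, Clca1 ranged from -0.088 to 0.95, Zg16 from -0.087 to 0.12, Tff3 from -0.054 to 0.090, Spdef from -0.22 to 0.00069, Car1 from -0.19 to 0.21, Dclk1 from -0.14 to 0.0020 and Hoxa13 from -1.41 to 1.71. Depth limits Muc6 and Itgax, each at a few CPM.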
